A study of Rattus norvegicus with 4 samples.

Results

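The perineuronal net and tenascin genes are 10 genes, Acan, Ncan, Bcan, Vcan, Hapln1, Hapln2, Hapln4, Tnr, Tnc and Ptprz1, found by symbol in the deposited peak lists. A perineuronal net is a lattice of extracellular matrix that closes around the cell body and proximal dendrites of some neurons as they mature. Its proteoglycans, the lecticans aggrecan, neurocan, brevican and versican, carry chondroitin sulfate chains and bind the long sugar hyaluronan. Link proteins of the Hapln family hold that bond in place, and tenascin-R joins lecticans to each other. In the arcuate nucleus (ARC), a region at the base of the hypothalamus that controls appetite and reproduction, nets have been described in mice around neurons next to the median eminence.

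RNA methylation was measured with MeRIP-seq, in which an antibody against N6-methyladenosine (m6A, a methyl mark on adenosines inside mRNAs) pulls down RNA fragments, and the pull-down (IP) is set against the input RNA. The question was how m6A in the ARC of female Sprague-Dawley rats differs between 5 weeks, in early puberty, and 3 weeks, in the juvenile stage. Untreated tissue of 3 rats was pooled at each age, and 1 IP and 1 input library were made from each pool, 4 libraries in all. The library names hold codes, ARC_352 for 5 weeks and ARC_212 for 3 weeks, and the ages behind the codes come from the study's text. A value of 1 pool per age has no spread between animals, so every difference between the ages is a description with no replicate check. Fewer cells of a type and less RNA per cell cannot be told apart in such pools.

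A peak is a stretch where IP exceeded input with the authors' p under 0.05, and its enrichment is the log2 ratio of IP over input. The members had 31 of 33056 peaks at 5 weeks and 31 of 29653 at 3 weeks, in 9 of the 10 genes at both ages. All genes with a peak numbered 14036 at 5 weeks and 13485 at 3 weeks. A further list, the between-age table, gives the enrichment at both ages over one joint region, and holds 17 entries of 8 members among 12704 entries in 8592 genes. Read depth was not given in the sources used here, and no file holds expression levels. Of 12 arcuate neuron markers, 8 were in the peak list of 5 weeks and 5 in that of 3 weeks, while Agrp, Ghrh, Kiss1 and Slc6a3 had none at either age. A peak shows methylated RNA of a gene, so its lack says nothing of how much RNA was there.

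The members' peaks were most often exonic, above all through Acan and Bcan, and most members with a peak had several. The enrichment was in most places lower at 5 weeks, by about as much as in the whole table. Aggrecan differed most, with 1 stretch of its coding sequence enriched at 3 weeks and below input at 5 weeks. The 31 peaks had a median log2 enrichment of 2.54 at 5 weeks (5.82-fold), where that of all peaks was 2.81, and 2.94 at 3 weeks (7.67-fold), where that of all peaks was 3.17. The members' peaks were thus spread around the middle of the lists, with 14 of 31 above the median of all peaks at 5 weeks and 13 of 31 at 3 weeks. A member with a peak had 3.44 peaks on average at each age, and a gene of the whole lists had 2.36 at 5 weeks and 2.20 at 3 weeks. Peaks of 1 gene are not independent, and long genes can hold more of them.

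**Figure D1:**
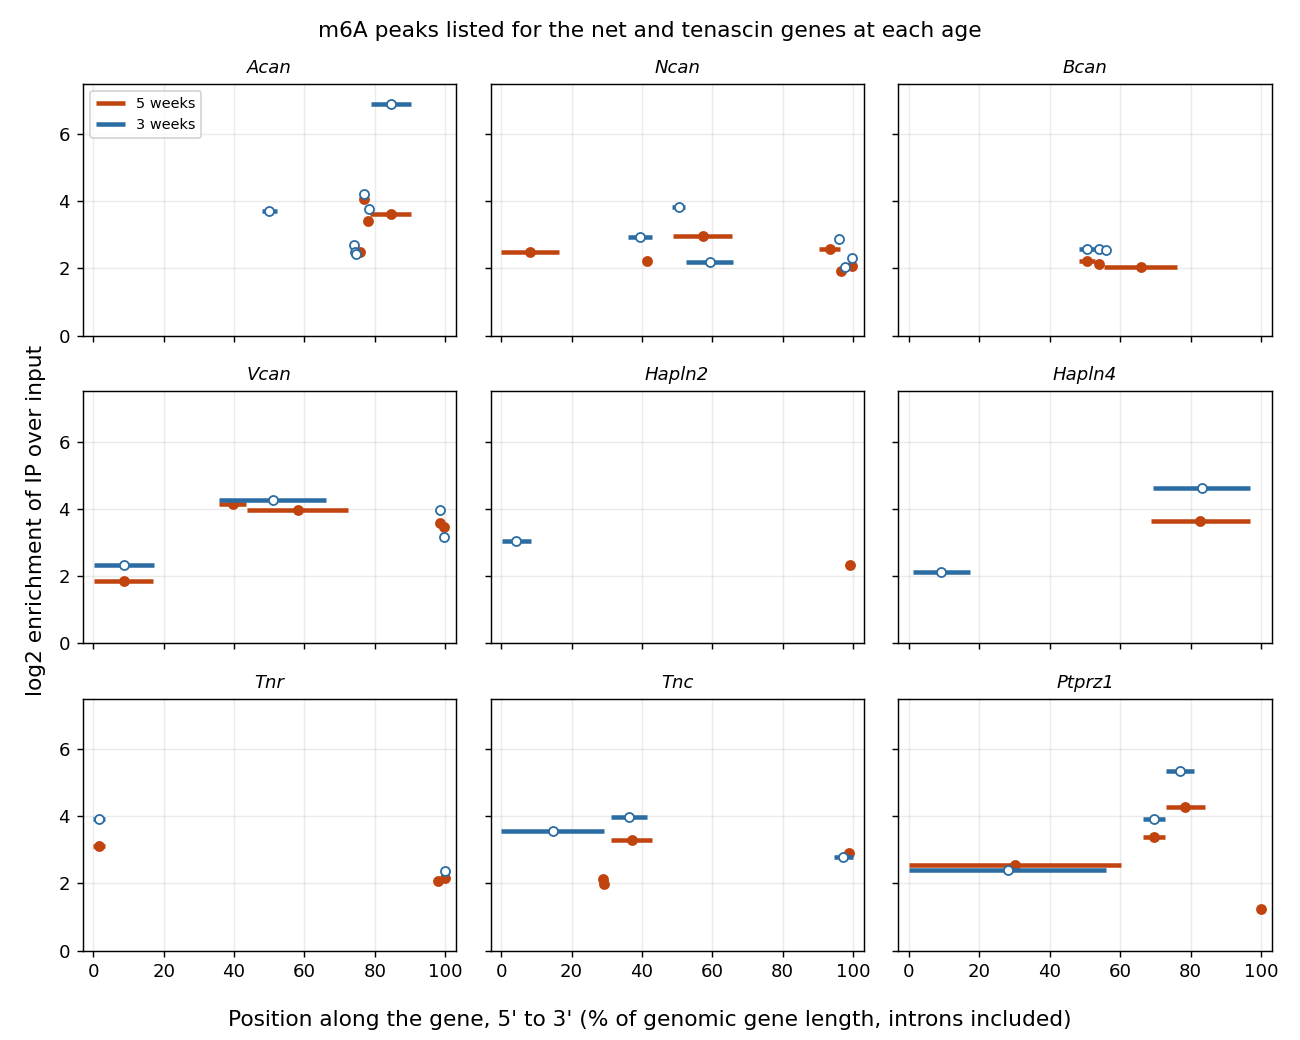
Each panel is 1 gene with a peak; the x axis is the position along the gene from 5' to 3' (percent of its genomic length, introns included) and the y axis is the log2 enrichment of IP over input. Filled orange marks are peaks at 5 weeks and open blue marks peaks at 3 weeks, with a bar over the stretch of each peak. The peak of Acan near its 3' end stood at 3.62 at 5 weeks and 6.89 at 3 weeks, and no other peak of the 9 genes reached 6.

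Acan encodes aggrecan, a large lectican and a defining component of mature nets. All of its peaks were annotated as exonic, 4 at 5 weeks and 7 at 3 weeks, and none lay at the start codon, the stop codon or a UTR. The longest one, chr1:133030442-133037557 at 5 weeks, had a log2 enrichment of 3.62 (12.3-fold), against 6.89 (118-fold) for its overlapping peak at 3 weeks, chr1:133030517-133037557. At 3 weeks this peak was stronger than 97.3% of all peaks, and at 5 weeks than 72.6%. A pair of shorter neighbours differed far less, with 4.07 at 5 weeks and 4.20 at 3 weeks for the one, and 3.41 at 5 weeks and 3.78 at 3 weeks for the other. The authors' p of IP over input at 3 weeks was 2.5e-16 for the long peak, weaker than the 1.5e-26 of the neighbour of 4.20. Read counts were not given, so how many reads the 118-fold rests on is unknown. Near the middle of the gene, from 47.8% to 52.2% of its length, a peak was listed at 3 weeks only, with a log2 enrichment of 3.70. The 3 other peaks without an overlapping peak at 5 weeks were short, 100 to 125 bases, with 2.43 to 2.70, and lay close together at 74.0% to 74.7% of the gene. At 5 weeks 1 short peak of 2.48 was listed with no overlapping peak at 3 weeks.

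Over the joint regions, Acan had 2 entries. In chr1:133013731-133013905, inside the peak listed at 3 weeks only, the log2 enrichment was -2.71 at 5 weeks and 3.87 at 3 weeks, a difference of -6.58. The IP library thus held less of this stretch than the input at 5 weeks. Among the 3424 entries whose 3-week enrichment lay within 0.5 of it, the median difference was -0.98, and this one was the lowest. In chr1:133030517-133037557 the values were 3.40 at 5 weeks and 6.87 at 3 weeks, a difference of -3.47. Entries that started this high at 3 weeks had larger differences as a whole: over 314 entries within 0.5 of 6.87 the median was -2.05, and 26.9% lay below the one of Acan.

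Ncan encodes neurocan, a lectican of the developing brain. It had 6 peaks at each age, with log2 enrichments of 1.91 to 2.96 at 5 weeks and 2.05 to 3.83 at 3 weeks. In exons lay 2 at 5 weeks and 3 at 3 weeks, and the rest clustered near the end of the gene around the stop codon and in the 3' UTR, apart from a start codon peak of 2.49 listed at 5 weeks only. The difference was -1.27 in the exonic region chr16:19312760-19313259 (1.79 at 5 weeks, 3.06 at 3 weeks) and -1.03 in chr16:19314828-19315827 (2.78 at 5 weeks, 3.81 at 3 weeks). It was smaller at the stop codon, -0.47, with 2.45 at 5 weeks and 2.93 at 3 weeks. A 5' UTR peak of the neighbouring gene Gatad2a spans the whole of Ncan on the same strand, introns included, so all 6 Ncan peaks lie within its outer limits at each age. Whether the 2 genes share bases of an exon there was not analysed here.

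Bcan encodes brevican, a lectican of the adult brain made by glia and neurons. Its 3 peaks at each age were all exonic and lay in the middle of the gene, and they were among the weaker ones. They had 2.22, 2.13 and 2.03 at 5 weeks, and 2.58, 2.58 and 2.56 at 3 weeks, in order from 5' to 3'. All 3 were lower at 5 weeks than the overlapping 3-week peaks of the gene, as were 70.8% of all such pairs. Their differences lay near the middle of all pairs, of which 40.2% to 49.7% were lower. The joint regions gave -0.56 and -0.46, less than the median over all entries.

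Vcan encodes versican, whose middle exons carry the chondroitin sulfate chains and are left out of some isoforms. The strongest peaks were exonic and lay in the middle of the gene, with 4.14 and 3.97 at 5 weeks, and 4.27 at 3 weeks, where 1 peak of 30237 genomic bases overlapped both. At the stop codon the enrichment was 3.58 at 5 weeks and 3.96 at 3 weeks, and at the start codon 1.86 at 5 weeks and 2.33 at 3 weeks. The 3' UTR peak went the other way, with 3.45 at 5 weeks and 3.15 at 3 weeks, and it had no entry in the between-age table. The joint regions differed by -1.18 at the start codon, -0.58 in the exon and -0.63 at the stop codon.

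The link proteins were the thinnest group. Hapln1, the link protein known from cartilage and nets alike, had 0 peaks at both ages and 0 entries in the between-age table. Hapln2, a link protein of nodes of Ranvier, had 1 peak at each age and in opposite ends of the gene: in the 3' UTR at 5 weeks (2.32) and in the 5' UTR at 3 weeks (3.05). Hapln4, which is found with brevican in nets of the brainstem and cerebellum of mice, had a stop codon peak of 3.64 at 5 weeks and 4.63 at 3 weeks. Its joint region, chr16:19333356-19335605, had 3.46 at 5 weeks and 4.61 at 3 weeks, a difference of -1.15. A weak start codon peak of Hapln4, 2.12, was listed at 3 weeks only. In the RefSeq annotation of the rat assembly GRCr8, each lectican gene lies next to a link protein gene with 0 protein-coding genes in between: Bcan beside Hapln2, Ncan beside Hapln4, Vcan beside Hapln1 and Acan beside Hapln3, which also had 0 peaks at both ages.

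Tenascins are large glycoproteins of several joined chains. Tnr encodes tenascin-R, which is made largely by oligodendrocytes and some neurons and cross-links lecticans in nets. It had no exonic peak, and its strongest one covered the start codon within the first 3.34% of the gene, with 3.12 at 5 weeks and 3.92 at 3 weeks. The joint region there, chr13:72091585-72094098, differed by -1.04. At the far end of the 3' UTR the values were 2.16 at 5 weeks and 2.38 at 3 weeks, and a second 3' UTR peak of 2.07 was listed at 5 weeks only. Tnc encodes tenascin-C, a matrix protein of developing tissue and of astrocytes after injury. Around its start codon the joint region had 1.72 at 5 weeks and 3.29 at 3 weeks, a difference of -1.57 and the largest outside Acan. In the separate lists, 2 short peaks at 5 weeks, 2.15 and 1.99, overlapped 1 peak of 24852 genomic bases at 3 weeks, 3.57, the second of them only in part. The exonic peak of Tnc had 3.28 at 5 weeks and 3.98 at 3 weeks, while the stop codon peak was slightly higher at 5 weeks, 2.90 against 2.78 at 3 weeks.

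Ptprz1 encodes a receptor tyrosine phosphatase whose extracellular part, released as phosphacan, is itself a chondroitin sulfate proteoglycan and binds tenascins. Its peaks shared 1 layout at both ages, a start codon peak over 60.1% of the genomic length at 5 weeks and 56.1% at 3 weeks and a pair of exonic peaks behind it. The second exonic peak was the strongest peak of all members at 5 weeks, 4.27 (19.2-fold), against 5.34 (40.6-fold) at 3 weeks. The joint regions of these exons differed by -0.74 (3.19 at 5 weeks, 3.94 at 3 weeks) and -1.18 (4.18 at 5 weeks, 5.36 at 3 weeks). The start codon region was the only one of the 17 entries with a higher value at 5 weeks, 2.42 against 2.17 at 3 weeks, a difference of 0.25. A 3' UTR peak of 1.25 was listed at 5 weeks only, and 0.386% of all peaks of that age were weaker.

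**Figure D2:**
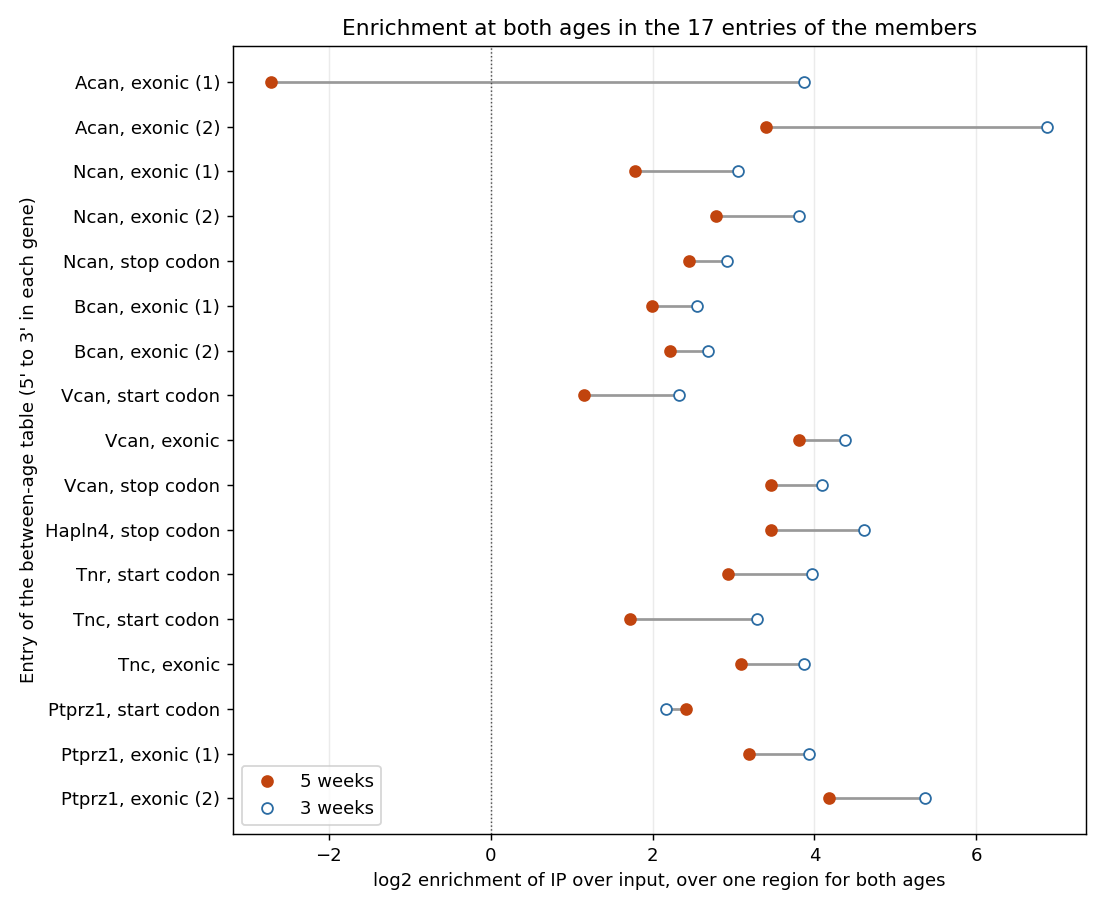
The log2 enrichment of IP over input (x axis) is drawn for the 17 entries of the between-age table that belong to the members (y axis, by gene and region), with filled orange points for 5 weeks and open blue points for 3 weeks. In 16 of 17 entries the 5-week point lies to the left, and the first Acan entry is the one with a 5-week value below 0, at -2.71.

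Taking the joint regions together, 16 of 17 differences were below 0, against 82.0% over all 12704 entries. Of the 17, 9 were weaker at 5 weeks by 2-fold or more (52.9%, background 46.9% of all entries), and 0 of 17 were stronger by that much (background 10.6%). At 1.5-fold 12 were weaker (background 73.0%) and 0 stronger (background 15.3%), and at 4-fold 2 were weaker, both of Acan (background 12.6%), and 0 stronger (background 5.12%). The 9 entries came from 7 of the 8 genes, all but Bcan. The nearest ones on either side of 2-fold were the Ncan exonic region at -1.03 and the Tnc exonic region at -0.79. The members' median was -1.03 and that of all entries -0.95, and without Acan the members' median was -0.79, with 7 of 15 weaker. The table lists only regions with the authors' p under 0.05, which leaves few differences near 0. After the median of all entries was subtracted, 2 of 17 were weaker by 2-fold (background 13.3%), both of Acan, and 1 was stronger (background 18.0%), the start codon region of Ptprz1. Over the 1395 entries within 0.5 of its 3-week value the median difference was 0.51, and 43.3% lay below the 0.25 of Ptprz1. A lower enrichment of most entries at 5 weeks and a difference between the IP libraries as a whole cannot be told apart with 1 pool per age.

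**Figure D3:**
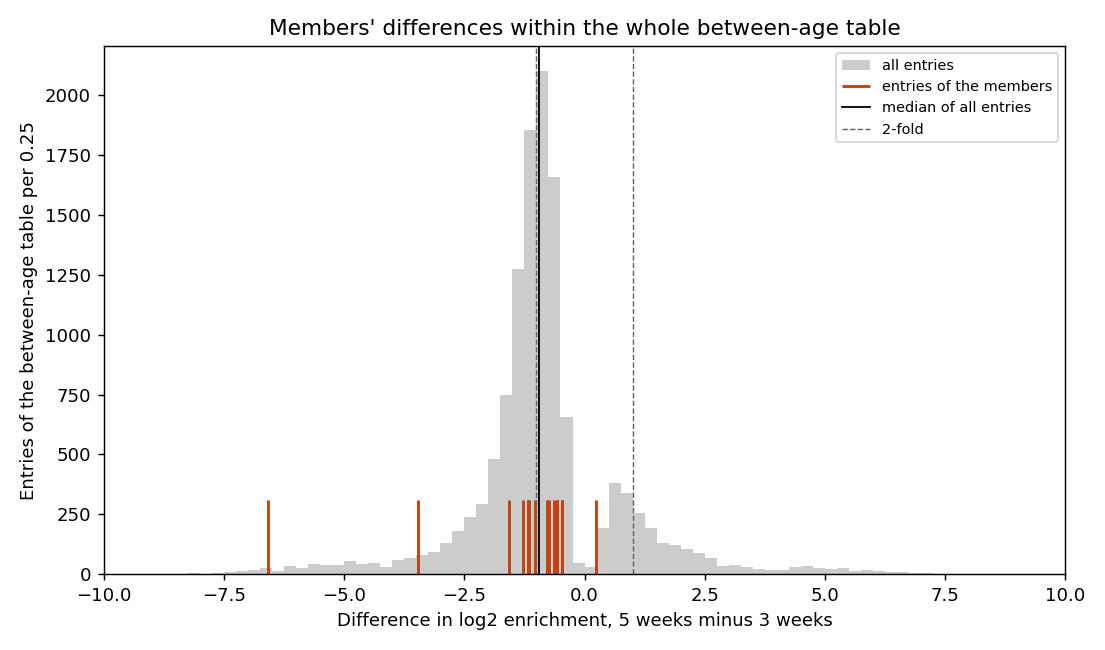
The grey histogram counts the 12704 entries of the between-age table (y axis, per 0.25) by their difference in log2 enrichment, 5 weeks minus 3 weeks (x axis); orange lines mark the 17 entries of the members, the black line the median of all entries, -0.95, and dashed lines 2-fold. The members lie within the main mass apart from the 2 of Acan at -6.58 and -3.47 and 1 of Ptprz1 at 0.25.

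The separate lists are not filtered on a p between the ages, so they were also paired across the ages. A pair needs a listed peak at both ages, so the pairing still leaves out stretches listed at 1 age only. With a partner of the same gene on the same strand and at least 1 base in common, 26 of 31 peaks of the members at 5 weeks had a partner (83.9%, against 74.3% of all peaks), and 24 of 31 at 3 weeks (77.4%, against 82.8%). Over these 26 pairs the median difference was -0.41, against -0.36 over all 24548 such pairs. Both medians leave out peaks without a partner, for the members 5 at 5 weeks and 7 at 3 weeks. Among the 7 was the Acan peak of 3.70 near the middle of the gene. Of the 26, 4 were weaker at 5 weeks by 2-fold (background 19.1%) and 0 were stronger (background 4.78%). The 4 were the long exonic peak of Acan, -3.26, the second exonic peak of Ptprz1, -1.08, and both short peaks near the start codon of Tnc. Those of Tnc, -1.42 and an exonic one of -1.58, share their partner, the exonic one by 75 bases only. In 4 pairs the value was higher at 5 weeks, in Ncan (0.78), Vcan (0.30), Ptprz1 (0.13) and Tnc (0.12). The Ncan pair rests on the choice of partner, since its 5-week peak of 2.96 also overlaps a 3-week peak of 3.83 by fewer bases. Without the condition on the gene, which was added after the data were seen, there were 27 pairs with a median of -0.54, of which 10 were weaker by 2-fold (37.0%, background 19.2%) and 0 stronger (background 4.8%). Of these 27 pairs, 6 joined an Ncan peak to the Gatad2a peak that spans it, and all 6 were among the 10.

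In the deposited annotation, the members' peaks were exonic more often than those of the lists as a whole, though not in every gene. Of 31 peaks, 15 were exonic at 5 weeks (48.4%, 95% Wilson interval 32.0 to 65.2%, counting error only) and 17 of 31 at 3 weeks (54.8%, 37.8 to 70.8%), against 29.7% and 27.8% of all peaks of these ages. Acan and Bcan held 7 of the 15 at 5 weeks and 10 of the 17 at 3 weeks. Every peak of Acan and Bcan was exonic, while Tnr, Hapln2 and Hapln4 had no exonic peak at either age. Stop codon peaks, the region with the highest median enrichment over all peaks among these 5, made up 4 of 31 at each age (12.9%, 5.13 to 28.9%), against 22.9% of all peaks at 5 weeks and 24.6% at 3 weeks. Start codon peaks were 5 of 31 at each age (16.1%, 7.09 to 32.6%), against 7.85% at 5 weeks and 8.46% at 3 weeks. For stop codon and start codon peaks, the members' intervals hold the shares of all peaks. In the 3' UTR there were 7 at 5 weeks and 4 at 3 weeks, and in the 5' UTR 0 at 5 weeks and 1, of Hapln2, at 3 weeks. The median enrichment of the members' exonic peaks was 3.28 at 5 weeks, where that of all exonic peaks was 2.62, and 3.70 at 3 weeks, where it was 2.91. The peaks of 1 gene share its exon structure, so the intervals are too narrow for a statement on genes.

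**Figure D4:**
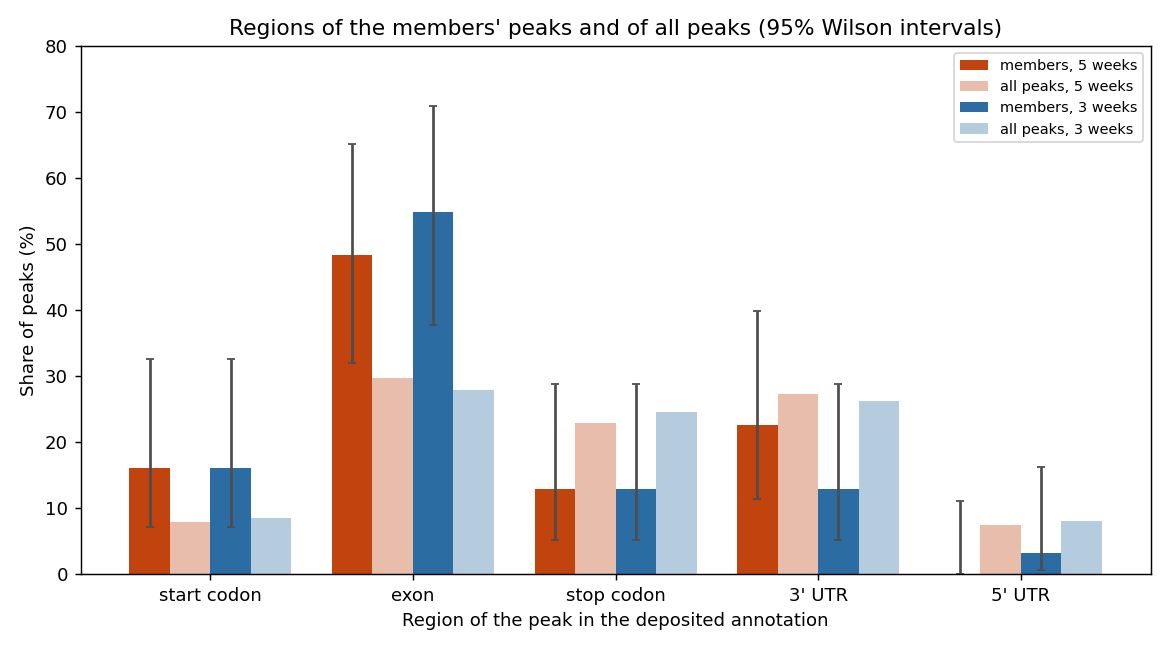
The bars give the share of peaks in percent (y axis) by region of the deposited annotation (x axis), with the members in full colour and all peaks in pale colour, orange at 5 weeks and blue at 3 weeks; error bars are 95% Wilson intervals of the members' shares over 31 peaks. The members' exonic share was 48.4% at 5 weeks and 54.8% at 3 weeks, against 29.7% and 27.8% of all peaks.

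Net components pass through shared steps of synthesis and removal, and genes of these steps were read from the same table. Of 27 entries of enzymes that build chondroitin sulfate, 16 were weaker at 5 weeks by 2-fold and 1 was stronger, with a median difference of -1.20. The largest were a 3' UTR region of Csgalnact2, which starts chondroitin chains (-2.67 at 5 weeks, 3.13 at 3 weeks, difference -5.80), an exonic region of Chst3, a chondroitin 6-sulfotransferase (0.81 at 5 weeks, 4.49 at 3 weeks, -3.68) and the stop codon of Chst14, a dermatan 4-sulfotransferase (2.57 at 5 weeks, 5.98 at 3 weeks, -3.42). The remaining regions of Csgalnact2 differed by -1.26 at the stop codon and -0.92 at the start codon, and those of Chst3 by -2.24 and -1.99. Of 19 entries of matrix proteases and their inhibitors, 14 were weaker and 0 stronger, with a median of -1.28. Those were led by the start codon region of Adamts5, an aggrecanase (4.50 at 5 weeks, 9.94 at 3 weeks, -5.44). Next came the start codon region of Adamts15, another lectican-cutting protease, at -2.83, and a 5' UTR region of Timp2, a metalloprotease inhibitor, at -2.73. Other entries differed less, in Adamts5 by -2.37 and -1.28 and in Adamts15 by -1.99 and -0.85. Those of Timp2 differed by -1.02 at the stop codon and by -0.52 and -0.29 in the 3' UTR. These shares, 59.3% for the synthesis genes and 73.7% for the proteases, stand beside the same background of 46.9%, and no test of the difference was made. Over all entries, 10.6% were stronger and the median was -0.95.

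Of 28 entries of receptors and ligands that bind net components, 8 were weaker (28.6%, background 46.9%) and 1 stronger (background 10.6%), with a median of -0.67, against -0.95 over all entries. Egfr differed by -2.06, the integrin subunit Itgb1 by -1.78 in its 5' UTR, and the hyaluronan receptor Cd44 by 1.96, with 3.44 at 5 weeks and 1.48 at 3 weeks. Other entries of Itgb1 went both ways, with -1.04 in the 3' UTR and 0.96 and -0.67 in exons. Of 14 entries of other matrix genes and hyaluronan enzymes, 7 were weaker and 1 stronger, with a median of -0.99, and the 50.0% weaker lay near the background. Sema3a, a secreted guidance protein that binds nets, differed by -4.74 in its 3' UTR (2.86 at 5 weeks, 7.61 at 3 weeks), and Has2, a hyaluronan synthase, by -2.98. The stop codon region of Sema3a differed by -1.29. Hyal1, a hyaluronidase, had 3' UTR regions on both sides, 2.76 and -2.49, and another at -0.68.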

How the data were processed

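Input and m6A IP libraries of polyA RNA came from 1 pool of 3 rats per age (4 libraries). Reads were trimmed by the authors (Cutadapt in the study's methods, fastp 0.19.4 in the submitters' processing notes) and aligned with HISAT2 2.0.4. These notes list a human build although the files hold rat chromosomes and gene IDs, so positions are given as listed, with no build, as 1-based (the files count starts from 0). For the peak caller, annotation and scaling, no name was given in the sources read. The authors deposited log2 enrichment of IP over input per peak and age, and log2 enrichment of both ages over joint regions. Each deposited p-value comes from 1 IP and 1 input library. The table's own fold changes and p-values between the ages were not used, apart from the largest p (0.0499), and the 5-week minus 3-week difference was computed here. Depth and its precision are unknown.

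No test was run, as each age has 1 library of a kind. Weaker or stronger means 2-fold. Peaks were paired on 1 strand by at least 1 base in common, by the largest overlap, and the condition of the same gene was added after the Gatad2a peak had been seen. Pairing by overlap was tested on simulated peaks with at most 1 possible partner each. That test did not cover the same-gene condition or peaks with several partners. Members and the 10 further lists were chosen with earlier results of these data known. Named genes are the 10 members, up to 3 genes per other list with the largest difference past 2-fold, and, in a list with none, the gene with the most peaks. Gatad2a, Pvalb and the genes without peaks were named after their values were seen. Alternatives covered the peak threshold, overlap, partner, centring, fold and value per gene. Sequences were left out because no genome of the files' build was used. Python 3.11.15, numpy 2.4.6, pandas 2.3.3, scipy 1.17.1 and matplotlib 3.10.9 were used.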

Additional observations from a re-analysis of the deposited data

How the results depend on the processing

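With 1 library of each kind per age, leaving out a replicate was not possible, and no paired analysis was possible because each age is 1 pool. All 31 peaks of each age had an adjusted p of the authors under 0.05. A log2 enrichment of at least 1 with p under 0.00001 left 26 of 31 at 5 weeks and 27 of 31 at 3 weeks, with exonic shares of 46.2% at 5 weeks and 51.9% at 3 weeks. The count of entries weaker at 5 weeks by 2-fold, 9 of 17, became 2 after centring on all entries, 3 after centring on all paired peaks (background 27.2%), 3 of 16 with the enrichment taken from overlapping peaks of the same gene in the separate lists, where the Acan entry of -6.58 has no 5-week peak and drops out, 4 of 8 genes with the mean over a gene's entries and 5 of 8 with its most enriched entry. At 4-fold it was 2 and at 1.5-fold 12. For the counts per gene and those from the separate lists, no share over all genes or entries was computed, so they have no background. The count of stronger entries became 1 after centring on all entries and stayed 0 in the other settings run. The median over entries, -1.03, was -0.072 after centring on all entries, -0.67 after centring on all paired peaks, -0.98 with the mean per gene, -0.62 from the 16 entries with values in the separate lists and -0.79 without Acan. The median over pairs without the condition on the gene, -0.54, was -0.38 with at least 50% of both peaks in common, -0.18 after centring on all paired peaks, -0.41 with a partner of the same gene and -0.45 with such a partner and without Acan. Leaving out Acan and the partner of the same gene were chosen after seeing the data. The cause of these differences was not tested. Unknown depth limits how far a missing peak can be read, above all for the short 5-week or 3-week peaks without a partner.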

Other observations

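Markers of the cells that make net components were read from the same lists. The 6 markers of oligodendrocyte precursors all had peaks at both ages, and 6 of their 9 entries were weaker at 5 weeks by 2-fold, with 0 stronger and a median of -1.06, where all entries had 46.9% weaker, 10.6% stronger and a median of -0.95. The stop codon region of Olig2, a lineage transcription factor, had 3.68 at 5 weeks and 5.71 at 3 weeks (-2.03), that of Pdgfra, the precursors' growth factor receptor, differed by -1.28, and that of Sox10, a lineage transcription factor, by -1.07. The 12 entries of myelin genes held 0 past 2-fold in either direction, with a median of -0.46, and Mbp, which encodes myelin basic protein, had 3 peaks at 5 weeks and 4 at 3 weeks. Of 7 myelin genes, 6 had a peak at each age, all but Cldn11.

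Of 9 astrocyte and tanycyte markers, 8 were listed at 5 weeks and 6 at 3 weeks. Beside the same shares over all entries, 46.9% weaker and 10.6% stronger, their 10 entries had a median of -0.41, and 2 were stronger at 5 weeks by 2-fold. These were Aldh1l1 (3.19 at 5 weeks, 0.97 at 3 weeks) and Vim (2.14 at 5 weeks, 0.63 at 3 weeks). Against them, 1 was weaker, in the 3' UTR of Gfap (-1.11), while the exonic entry of Gfap was higher at 5 weeks (2.59 against 2.09 at 3 weeks). Neurons with nets often make parvalbumin, and all 4 genes of that list had peaks at both ages, with 0 of 7 entries past 2-fold and a median of -0.62. The entry of Pvalb, which encodes parvalbumin, went the other way, with 2.77 at 5 weeks and 1.99 at 3 weeks (0.79). No other entry of that list was above 0. Kcnc2, a potassium channel of fast-spiking neurons, had 5 peaks at 5 weeks and 3 at 3 weeks. The 1 entry of arcuate markers was Sst, with a difference of -0.83, and Tbx3 had 2 peaks at 5 weeks and 3 at 3 weeks. Of 7 pituitary and choroid plexus genes, 1 was listed at 5 weeks and 2 at 3 weeks, while Gh1, Prl, Cga, Ttr and Folr1 had none, and the 1 entry, in an exon of Kl, had 3.42 at 5 weeks and 9.14 at 3 weeks. What part a change in the mix of cells has in the members' values was not tested, as no file holds expression levels.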
